A study of Mus musculus with 18 samples.

Results

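The genes described here are 8 interferon genes of the mouse: the type I ligands Ifnb1, Ifna2, Ifna4 and Ifna5, the type III ligands Ifnl2 and Ifnl3, and the subunits of the type I receptor, Ifnar1 and Ifnar2. They were chosen by name, as rows of a table of 50600 genes, and all 8 passed the filter on low counts that left 17110 genes for testing. The ligand genes passed it only through tumors given the agonist described below. The RNA came from whole subcutaneous tumors of B16F10, a mouse melanoma cell line, in the right flank of female C57BL/6 mice that were 5 to 6 weeks old at purchase. Tumors were injected with a cyclic dinucleotide agonist of STING (CDN2, which the sample labels call CL656), free or loaded into extracellular vesicles (exoCDN2), and were taken 24 h after the last injection. There were 9 groups of 2 tumors. After 1 dose they had received PBS, unloaded EVs, exoCDN2 (0.1 µg), CDN2 (20 µg) or CDN2 (100 µg). After 2 doses, 3 days apart, they had received PBS, exoCDN2 (0.1 µg), CDN2 (20 µg) or CDN2 in an amount that the labels do not give. The labels number the 2 tumors of a group as replicates and say nothing more of how they were handled, so p-values measure the spread between these tumors only.

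Type I interferons are secreted cytokines that cells make when a sensor such as STING or an RNA helicase activates the kinase TBK1 and the transcription factors IRF3 and IRF7. They bind the receptor formed by Ifnar1 and Ifnar2 on nearly all cells, and transcription factors activated by the receptor, among them Stat2 and Irf9, then turn on interferon-stimulated genes. Type III interferons use another receptor, Ifnlr1 with Il10rb, which is found mainly on epithelial cells. Ifnb1 and Ifna4 are known as early type I genes, and several others of the Ifna family as later ones that depend on Irf7.

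Ifnb1 and the Ifna genes lie in 1 cluster on chromosome 4 and have no introns. In GRCm38, Ifnb1 is at chr4:88522025-88522774 on the minus strand with 1 exon, Ifna2 at chr4:88682881-88683912 on the minus strand, Ifna5 at chr4:88835525-88836094 and Ifna4 at chr4:88841861-88842421, both on the plus strand. Ifnl2 (chr7:28508836-28510455, minus strand) and Ifnl3 (chr7:28522836-28524322, plus strand) are neighbours with 5 exons each. The receptor genes are neighbours too, with Ifnar2 at chr16:91372783-91405589 and Ifnar1 at chr16:91485238-91507441, both on the plus strand. Positions are those of the GENCODE M21 annotation.

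The upstream sequence of the 4 type I ligands is shown as a description, and whether its letters bear on the counts was not tested. The stretches are from RefSeq windows of GRCm38, run 5′ to 3′ on the strand of each gene, and end before the start of both annotations. Capitals mark matches to AANNGAAA or GAAANNGAA, letters found in binding sites of IRF proteins, and, in Ifnb1, to GGAAATTCC, letters found in NF-κB sites. They are at chr4:88522891-88522963 (Ifnb1), chr4:88683924-88684028 (Ifna2), chr4:88841566-88841717 (Ifna4) and chr4:88835293-88835379 (Ifna5).
Ifnb1: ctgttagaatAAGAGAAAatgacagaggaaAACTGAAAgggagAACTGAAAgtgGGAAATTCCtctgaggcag
Ifna2: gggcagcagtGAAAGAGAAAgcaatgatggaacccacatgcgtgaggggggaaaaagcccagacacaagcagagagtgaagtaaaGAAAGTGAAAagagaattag
Ifna4: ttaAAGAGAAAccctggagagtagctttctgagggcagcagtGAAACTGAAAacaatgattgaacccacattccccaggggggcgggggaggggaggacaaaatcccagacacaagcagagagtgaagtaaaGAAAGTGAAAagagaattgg
Ifna5: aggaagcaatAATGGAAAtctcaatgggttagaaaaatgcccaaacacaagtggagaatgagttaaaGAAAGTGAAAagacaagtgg

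Over windows of 250 bases before to 50 bases after the RefSeq start, searched on both strands, GAAANNGAA was found in 3 of the 8 genes (Ifna2, Ifna4 and Ifna5) and in 8.57% of 27025 promoters. AANNGAAA was found in 4 of the 8, the type I ligands, and in 24.2% of promoters. In Ifna2, Ifna4 and Ifna5 each GAAANNGAA overlaps an AANNGAAA. GGAAATTCC was found in Ifnb1 alone among the 8 and in 0.322% of promoters. The Ifna2 start of GENCODE lies 133 bases before that of RefSeq, and the Ifnl2 start 95 bases before it, so these windows are not aligned on 1 start. No match in a window says only that these letters are not in it.

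The Ifna genes are near copies of each other, and reads can be shared among them. Over the aligned coding bases, identity was 90.3% between Ifna2 and Ifna4, 88.5% between Ifna4 and Ifna5 and 87.9% between Ifna2 and Ifna5. It was 97.1% between Ifnl2 and Ifnl3, and between 50% and 53.3% for Ifnb1 against the Ifna genes. The aligned stretches of 60 coding bases with the most differences show where reads tell the copies apart. Capitals mark positions at which the sequences shown together differ, 18 among the Ifna genes and 6 between the Ifnl genes. They are at chr4:88683492-88683551 (Ifna2, minus strand), chr4:88842092-88842151 (Ifna4), chr4:88835753-88835812 (Ifna5), chr7:28508900-28508959 (Ifnl2, minus strand) and chr7:28524224-28524283 (Ifnl3).
Ifna2: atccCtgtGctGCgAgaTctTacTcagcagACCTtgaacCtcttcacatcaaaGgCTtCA
Ifna4: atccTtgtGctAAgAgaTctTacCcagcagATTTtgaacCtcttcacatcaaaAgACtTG
Ifna5: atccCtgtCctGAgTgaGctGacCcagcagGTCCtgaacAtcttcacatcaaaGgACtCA
Ifnl2: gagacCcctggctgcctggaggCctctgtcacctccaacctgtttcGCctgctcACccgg
Ifnl3: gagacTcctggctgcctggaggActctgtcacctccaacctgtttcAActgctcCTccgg

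No window of 150 bases, the read length, in Ifnb1, Ifna2, Ifna4 or Ifna5 occurred letter for letter in a transcript of another gene. With windows of 75 bases, 5.64% of Ifna2 and 31.2% of Ifna5 were shared with other Ifna genes and Gm13281, and none of Ifna4 or Ifnb1. For Ifnl2 and Ifnl3, 3.07% and 3.93% of the 150-base windows were shared between the pair. For Ifnar2, 5.73% were shared with the read-through gene Gm21970, which had at most 4.66 expected counts in any tumor. The deposited counts of the 6 ligands were whole numbers in every tumor, while that of Ifnar2 was a fraction in 5 of the 18. Sequencing errors and strain differences can still move single reads between Ifna copies, so small differences among Ifna2, Ifna4 and Ifna5 are uncertain.

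The total of expected counts was 21608895 in the first tumor given 2 doses of CDN2 (20 µg) and from 38671428 to 65983630 in the other 17. That tumor and its partner were also the least alike, with 28% of genes over 2-fold apart, against 5.29% to 13.8% in the other groups. The summed CPM of 7 melanoma markers was between 12900 and 25100 in 17 tumors and 7410 in that tumor, and no melanoma marker was at or under 3 counts in any tumor. Its 5 skeletal muscle markers summed to 3410 CPM and those of its partner to 1700 CPM, against 4.3 to 466 CPM elsewhere.

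Without the agonist, the ligands were at or near 0. Ifnb1 had 6 counts in each PBS tumor after 1 dose and 0 in each PBS tumor after 2 doses. Ifna2, Ifna4, Ifna5, Ifnl2 and Ifnl3 had 0 counts in all 4 PBS tumors. The tumors in which the ligands were high thus also decided that these genes were tested. Their p-values against groups at or near 0 are not support apart from those counts. A count of 0 allows up to 3 counts, which is 2.48 to 2.76 normalized counts in these tumors (counts divided by DESeq2 size factors), so lower expression was not detectable at this depth. Intervals and floors of this kind cover counting error only. The receptor subunits were well expressed without treatment, with 3461 to 3613 normalized counts for Ifnar1 and 1439 to 1745 for Ifnar2 over the 4 PBS tumors. In bulk tumors, more cells that express a gene and more RNA per cell cannot be told apart.

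Unloaded EVs left all 8 genes uncalled, where a gene was called if its adjusted p was below 0.05 and the groups differed by more than 2-fold. Of all genes tested, 0% were called in this comparison, and 515 had an unadjusted p under 0.05 in edgeR's test. DESeq2 called 35 genes and none of the 8. Ifnb1 had 12 and 3 counts, around the 6 of PBS, and the other ligands had 0 counts. For Ifnar1 the log2 fold change was 0.09 with a 95% interval from -0.31 to 0.49, and for Ifnar2 it was -0.15 with an interval from -0.61 to 0.31.

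A single dose of exoCDN2 raised Ifnb1, Ifna2, Ifna4 and Ifna5, 4 of the 8 genes, where 2.81% of all genes were called. Ifnb1 had 1206 and 866 counts against 6 and 6 in PBS, a log2 fold change of 7.42 with an SE of 1.11 and an adjusted p of 0.0019. Both exoCDN2 tumors were far above both PBS tumors, and above the unloaded EV tumors with 12 and 3.

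**Figure D1:**
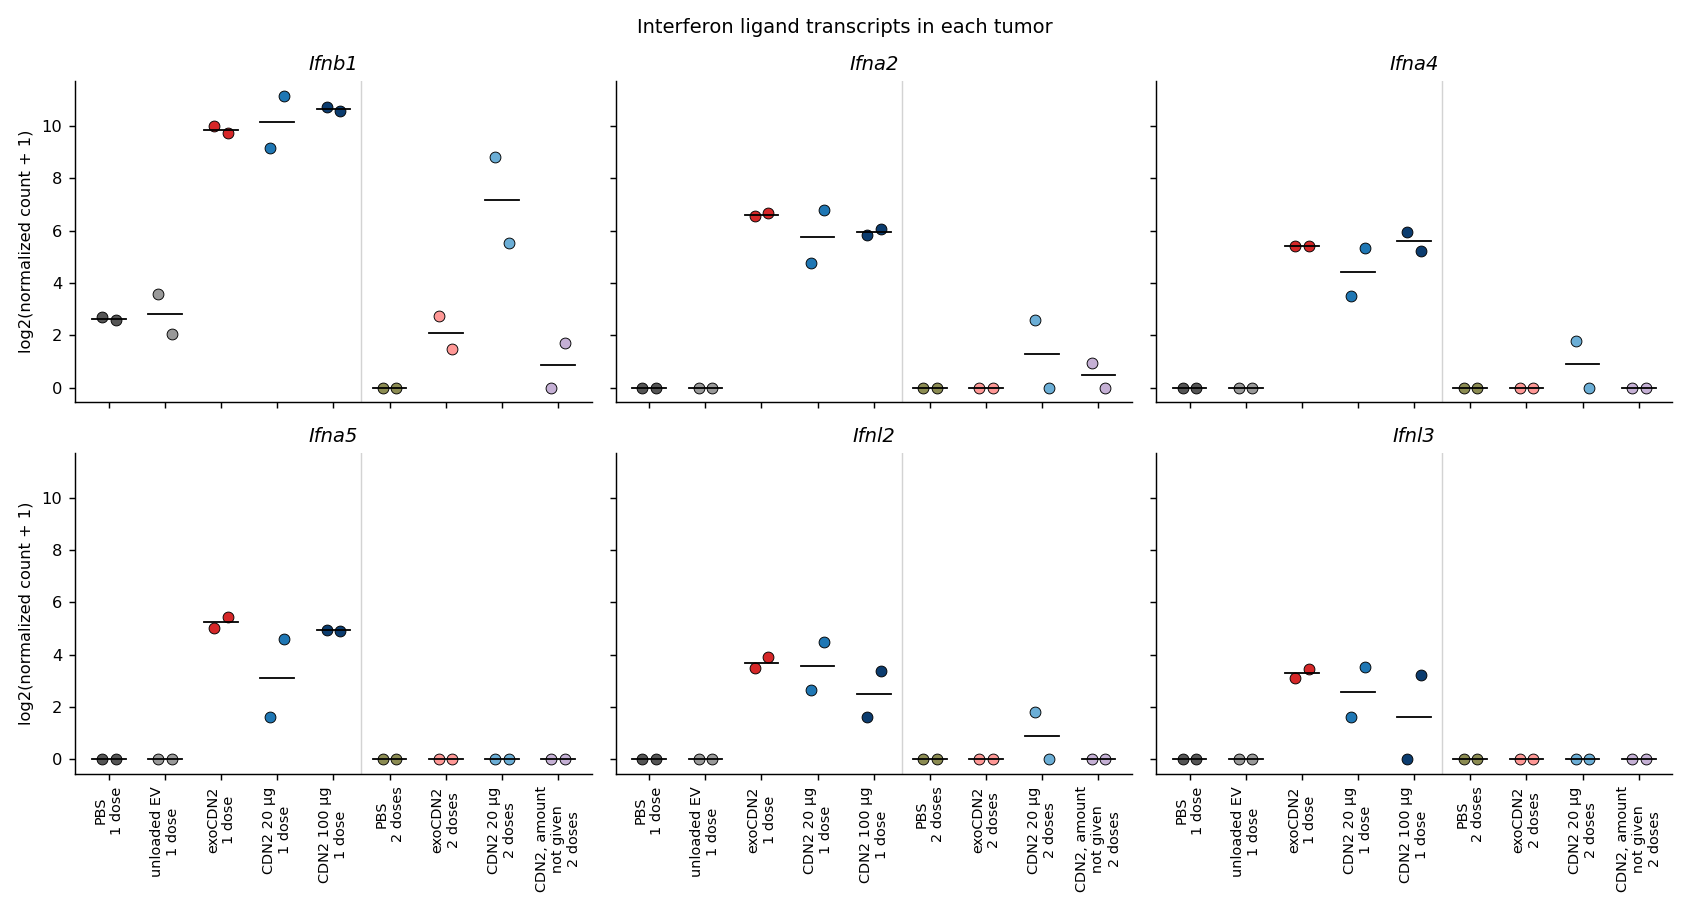
Each point is 1 tumor and each short line the mean of 2 tumors, as log2(normalized count + 1) of the 6 ligand genes in the 9 groups, with 1 dose left and 2 doses right of the grey line. Ifnb1 is highest in the groups given 1 dose of CDN2 in any form, and the Ifna and Ifnl genes are seen almost only there, with 0 counts in all PBS and unloaded EV tumors.

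Ifna2 had 111 and 102 counts after 1 dose of exoCDN2, Ifna4 had 49 and 42, and Ifna5 had 37 and 43. All PBS tumors were at 0, so the folds are lower bounds against a floor of 3 counts per tumor: at least 37.3-fold higher for Ifna2, 15.9-fold for Ifna4 and 14.1-fold for Ifna5. Their adjusted p-values were 0.0046, 0.013 and 0.039. Ifnl2, with 12 and 14 counts, and Ifnl3, with 9 and 10, lay above PBS in both tumors but did not pass the test, at adjusted p-values of 0.1 and 0.23. The calls of Ifna4 and Ifna5 were lost with DESeq2 and without any 1 of the 4 tumors, and no call was left without the second PBS tumor, where the adjusted p of Ifnb1 was 0.053.

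The same genes were called against unloaded EVs. In that comparison 4 of the 8 genes and 2.92% of all genes were called, with Ifnb1 at a log2 fold change of 6.97 (SE 1.08, adjusted p = 0.0022) and Ifna2 at least 33.1-fold higher (adjusted p = 0.0051). The bounds were 14.1-fold for Ifna4 and 12.6-fold for Ifna5, with adjusted p-values of 0.014 and 0.042. This comparison and the one with PBS share the exoCDN2 tumors, and all comparisons with PBS of 1 number of doses share their PBS tumors. Without any 1 of these 4 tumors, 2 genes were called, Ifnb1 and Ifna2.

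Free CDN2 (20 µg) raised Ifnb1, Ifna2 and Ifna4 after 1 dose, where 3.26% of all genes were called. Ifnb1 had 560 and 1963 counts, a log2 fold change of 8.06 (SE 1.12, adjusted p = 0.0012). The 2 tumors lay apart, at 580.2 and 2303 normalized counts, and both were above every PBS tumor. Ifna2 had 25 and 93 counts and Ifna4 had 10 and 34, at least 25.8-fold and 9.61-fold higher, with adjusted p-values of 0.0069 and 0.021. Without the second tumor these bounds were 9.91-fold and 3.97-fold, and without the first 41.8-fold and 15.3-fold. The Ifna4 call was lost without the second tumor (adjusted p = 0.14) and with DESeq2 (0.33). Ifna5, with 2 and 20 counts, Ifnl2, with 5 and 18, and Ifnl3, with 2 and 9, did not pass, at adjusted p-values of 0.11, 0.092 and 0.31. For all 6 ligands the second tumor had the higher count. Without either PBS tumor, Ifnb1 alone was called.

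Free CDN2 (100 µg) raised the same 3 ligands, where 2.5% of all genes were called. Ifnb1 had 1649 and 1472 counts, a log2 fold change of 8.23 (SE 1.13, adjusted p = 0.0014). Ifna2 had 54 and 64 counts and Ifna4 had 59 and 35, at least 23.4-fold and 18.6-fold higher, with adjusted p-values of 0.01 and 0.014. Ifna5 had 29 and 28 counts, at least 11.3-fold higher, and missed the threshold at an adjusted p of 0.052. Ifnl2 had 2 and 9 counts and Ifnl3 had 0 and 8, the lowest type III counts of the 3 groups given the agonist once. Here too, Ifnb1 alone was called without either PBS tumor, and the Ifna4 call was lost with DESeq2 (adjusted p = 0.22) and without the first CDN2 tumor (0.069).

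The 2 amounts of free CDN2 were not told apart by any of the 8 genes, with 0.491% of all genes called between them. The log2 difference of 100 µg minus 20 µg was 0.17 for Ifnb1 (95% interval -1.42 to 1.75), -0.13 for Ifna2 (-1.65 to 1.38) and 0.96 for Ifna4 (-0.59 to 2.52). These intervals hold differences of over 2-fold either way for Ifnb1 and Ifna2, so a like response is not shown.

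Between exoCDN2 (0.1 µg) and CDN2 (20 µg) after 1 dose, none of the 8 genes and 0.24% of all genes were called. The formulations were given in different amounts of CDN2. By normalized counts, exoCDN2 tumors had 1021 and 857.3 for Ifnb1 and CDN2 tumors 580.2 and 2303, so the groups overlapped. The log2 difference of exoCDN2 minus CDN2 was -0.64 for Ifnb1 (95% interval -2.23 to 0.96), 0.51 for Ifna2 (-0.98 to 2.01), 0.71 for Ifna4 (-0.84 to 2.26) and 1.52 for Ifna5 (-0.38 to 3.43). Normalized counts of Ifna4 were 41.5 and 41.6 with exoCDN2 against 10.4 and 39.9 with CDN2. Those of Ifna5 were 31.3 and 42.6 against 2.07 and 23.5.

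Among the reads of the 6 ligands, the balance of Ifna and Ifnb1 was read in each tumor, a measure chosen after the values were seen. Ifna2, Ifna4 and Ifna5 made up 13.8% (95% exact binomial interval 12.1% to 15.7%) and 17.4% (15.1% to 19.8%) of ligand counts after exoCDN2. In the tumors given CDN2 (20 µg) they made up 6.13% (4.35% to 8.35%) and 6.88% (5.84% to 8.04%). In those given CDN2 (100 µg) they made up 7.92% (6.71% to 9.27%) and 7.86% (6.59% to 9.28%). Both exoCDN2 tumors were thus above the 4 tumors given free agonist, and the intervals did not overlap. With 2 tumors a group, an exact permutation test of 2 against 2 cannot go below a two-sided p of 0.333, and no test was made.

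**Figure D2:**
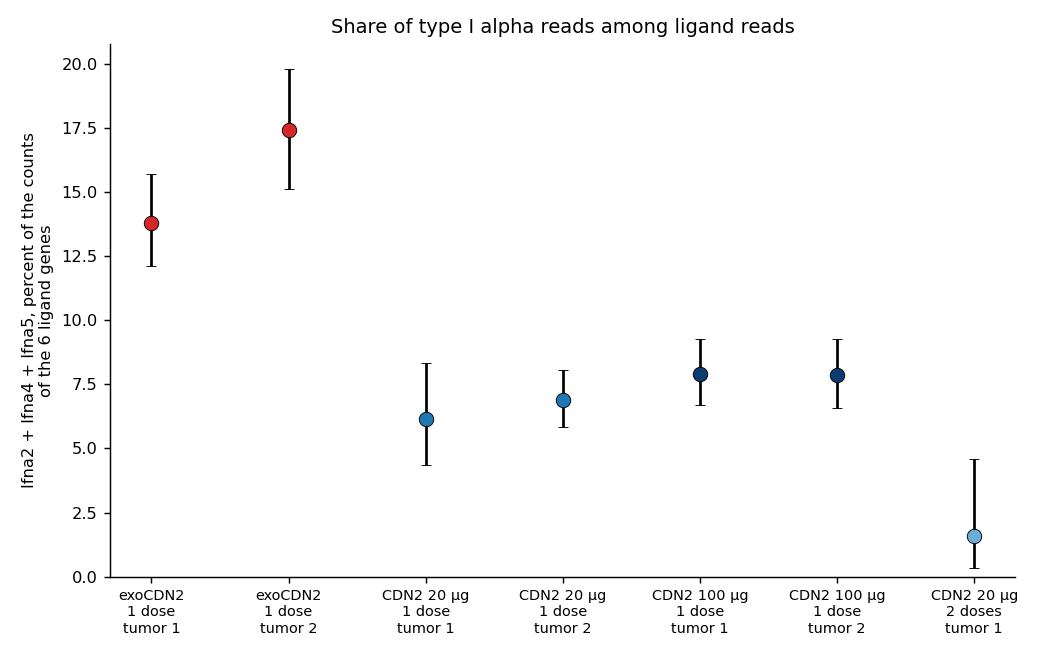
Each point is the share, in percent, of Ifna2, Ifna4 and Ifna5 counts among the counts of the 6 ligand genes in 1 tumor, with its 95% exact binomial interval for counting error, in the 7 tumors with at least 50 ligand counts. The exoCDN2 tumors sit at 13.8% and 17.4%, the 4 tumors given 1 dose of free CDN2 between 6.13% and 7.92%, and the first tumor given 2 doses of CDN2 (20 µg) at 1.59%.

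Per kilobase of annotated transcript, Ifnb1 stood far above the Ifna genes in every tumor given the agonist once. In normalized counts per kilobase it was at 1361 and 1143 after exoCDN2, while Ifna2 was at 91 and 97.8, Ifna4 at 73.9 and 74.1 and Ifna5 at 54.9 and 74.7. The Ifnl genes were lowest, at 14.5 and 19.7 for Ifnl2 and 13.1 and 17 for Ifnl3. Ifna2, Ifna4 and Ifna5 did not keep 1 order in all tumors: Ifna4 was at 108.4 and 65.1 after CDN2 (100 µg) and Ifna2 at 54 and 64.7. The annotated Ifna4, Ifna5 and Ifnl3 transcripts hold the coding length only, which raises their values on this scale against genes with untranslated ends.

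Of 14 further genes (the other Ifna genes, Ifnab, Ifne, Ifnk and Ifnz), 3 passed the filter and none was called against PBS in any comparison. Their counts summed to 75 and 67 after 1 dose of exoCDN2, 17 and 47 after CDN2 (20 µg), 47 and 50 after CDN2 (100 µg), and 3 and 2 in PBS. Ifna1 had 24 and 22 counts after exoCDN2, and Ifnk had 0 in all 18 tumors.

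Markers of macrophages, dendritic cells and neutrophils were read beside the ligands after 1 dose. The 7 macrophage markers summed to 152 and 153 CPM after exoCDN2, 178 and 342 after CDN2 (20 µg), 167 and 189 after CDN2 (100 µg), and 197 and 251 in PBS. The 7 plasmacytoid dendritic cell markers summed to 245 and 303 CPM after exoCDN2, 346 and 437 after CDN2 (20 µg), 179 and 226 after CDN2 (100 µg), and 267 and 290 in PBS. In that list Bst2, itself an interferon target, held most of the sum, and Siglech had 0 to 9 counts over all 18 tumors. The markers did not move together. After exoCDN2, Pacsin1 was at 7.77 and 10.6 CPM against 2.69 and 3.01 in PBS, and Tcf4 at 66.4 and 79.5 against 52.3 and 51.8. Cox6a2 was at 1.82 and 0.782 CPM against 0.284 and 0.634. In the same tumors the skeletal muscle markers summed to 466 and 139 CPM, against 52.6 and 96.7 in PBS. Bst2 was at 169 and 212 CPM against 211 and 234, and Siglech had 2 and 2 counts against 7 and 3. Ccr9 and Klk1 had few counts and overlapped PBS. The 6 conventional dendritic cell markers summed to 13.7 and 14.2 CPM after exoCDN2, and 15 and 18.8 in PBS. They summed to 9.42 and 17.5 CPM after CDN2 (20 µg) and 12.8 and 16.2 after CDN2 (100 µg). The 6 neutrophil markers summed to 4.48 and 4.73 CPM in PBS, 64 and 38.8 after exoCDN2 and 13.5 to 31.5 after free CDN2. The part of these cell types in the ligand counts was not tested.

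After the second dose, Ifnb1 was lower with exoCDN2 than with CDN2 (20 µg). They were given in different amounts of CDN2, so the part of formulation was not tested apart from that of amount. After 2 doses of exoCDN2, Ifnb1 had 7 and 3 counts, against 0 and 0 in PBS, and Ifna2, Ifna4, Ifna5, Ifnl2 and Ifnl3 had 0 counts in both tumors. None of the 8 genes was called against PBS after 2 doses, where 11.2% of all genes were called. After 2 doses of CDN2 (20 µg), Ifnb1 had 185 and 40 counts, at least 94.1-fold higher than PBS (adjusted p = 0.00059). Without the first tumor the bound was 16.8-fold, and without the second 171-fold. The 2 tumors were at 456.8 and 44.8 normalized counts, both above every PBS tumor and far from each other. Ifna2 had 2 and 0 counts, Ifna4 and Ifnl2 had 1 and 0, and Ifna5 and Ifnl3 had 0 in both. This comparison called 2 of the 8 genes, Ifnb1 and Ifnar2, where 30.4% of all genes were called.

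The tumors given 2 doses of CDN2 in an unlabelled amount had 0 and 2 counts of Ifnb1, 1 and 0 of Ifna2 and 0 of the other ligands. None of the 8 genes was called there, where 0.959% of all genes were called. Ifnb1 in these tumors was not above that of tumors given 2 doses of exoCDN2. Their amount of CDN2 is not known, so the part of formulation was not tested.

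Compared directly after 2 doses, exoCDN2 tumors had 5.63 and 1.76 normalized counts of Ifnb1 and CDN2 (20 µg) tumors 456.8 and 44.8. The log2 difference was -6 (SE 1.12, adjusted p = 0.0045), and Ifnb1 was the 1 gene of the 8 called, where 19.2% of all genes were called. The call was lost without the first CDN2 tumor, without the second exoCDN2 tumor and in a fit of these 4 tumors alone, at values from -3.64 to -6.9 over all alternatives and adjusted p-values up to 0.14. The first CDN2 tumor was the shallow one with 3410 CPM of muscle markers and 870 CPM of neutrophil markers, against 198 in its partner and 60.3 and 17.8 in the exoCDN2 tumors. The part of these, and of the different amounts of CDN2 given, in the Ifnb1 difference was not tested.

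Within a formulation, the ligands were lower in tumors given 2 doses than in those given 1. These were different tumors, so the number of doses cannot be told apart from other differences between the groups, such as time. Of 217 genes called between the PBS groups, 209 were lower after 2 doses. For exoCDN2, 5 of the 8 genes were called lower, where 7.32% of all genes were called. Ifnb1 fell by 7.99 on the log2 scale (SE 1.14, adjusted p = 0.0016). Ifna2 was at least 46.7-fold lower, Ifna4 at least 19.9-fold, Ifna5 at least 17.7-fold and Ifnl2 at least 5.75-fold, with adjusted p-values of 0.0031, 0.0064, 0.016 and 0.039. Ifnl3 went from 9 and 10 counts to 0 and 0 with an adjusted p of 0.11. The calls of Ifnb1 and Ifna2 held under all 10 alternatives run. Those of Ifna5 and Ifnl2 were lost without any 1 of the 4 tumors, and that of Ifna5 with DESeq2 as well (adjusted p up to 0.45 and 0.22). That of Ifna4 was lost with DESeq2 and without the first tumor given 2 doses (adjusted p up to 0.11).

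For CDN2 (20 µg), 4 of the 8 genes were called lower after the second dose, where 20.5% of all genes were called. Ifnb1 went from 560 and 1963 counts to 185 and 40, a log2 fold change of -2.63 (SE 0.81, adjusted p = 0.026). Ifna2 had a log2 fold change of -5.27 (SE 1.11, adjusted p = 0.0065) and Ifna4 of -4.78 (SE 1.23, adjusted p = 0.019), and Ifna5 went to 0 and 0 (adjusted p = 0.045). DESeq2 called none of the 4, and without the second tumor given 1 dose, Ifna2 alone stayed called.

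The fall of Ifnb1 was larger with exoCDN2 than with CDN2 (20 µg), which were given in different amounts of CDN2. The difference of the changes was -5.36 on the log2 scale (SE 1.36, adjusted p = 0.036), in a comparison added after the values were seen, where 6.66% of all genes were called and 1 of the 8. The call was lost in 8 of 14 alternatives, with adjusted p-values up to 0.17 and values from -3.02 to -6.63. PBS tumors were at 6 and 6 counts of Ifnb1 after 1 dose and at 0 and 0 after 2, at least 1.96-fold lower, with an adjusted p of 0.75. None of the 8 genes was called between the PBS groups, where 1.27% of all genes were called.

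Ifnar1 kept near its PBS level after 1 dose. It had 3984 and 3608 normalized counts after exoCDN2, 3600.5 and 2678 after CDN2 (20 µg), 3429 and 3166 after CDN2 (100 µg) and 3574 and 3532 in PBS. The log2 fold changes were 0.06 (95% interval -0.34 to 0.46), -0.19 (-0.59 to 0.21) and -0.12 (-0.52 to 0.28), so a 2-fold change lies outside each interval. After 2 doses the groups lay in the order PBS with 3461 and 3613, exoCDN2 with 3147 and 2952, CDN2 of unlabelled amount with 3058 and 2137, and CDN2 (20 µg) with 2030 and 2275 normalized counts. Both tumors given 2 doses of CDN2 (20 µg) were under both PBS and both exoCDN2 tumors, while the tumors of unlabelled amount overlapped both of their neighbours in this order. Against PBS the log2 fold change of Ifnar1 was -0.75 with CDN2 (20 µg) (SE 0.19, adjusted p = 0.0056), under the ratio of 2, and -0.2 with exoCDN2 (adjusted p = 0.55), whose tumors also lay under both PBS tumors.

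Ifnar2 moved the other way. After 1 dose it had 1901 and 2335 normalized counts with exoCDN2, 2106 and 2447 with CDN2 (20 µg), 1907 and 1868 with CDN2 (100 µg) and 1683 and 1745 in PBS, with log2 fold changes of 0.27, 0.4 and 0.12 that did not pass (adjusted p = 0.67, 0.46 and 0.92). After 2 doses it had 2939 and 2247 with exoCDN2, 5173 and 2993 with CDN2 (20 µg), 1663 and 1873 with CDN2 of unlabelled amount and 1439 and 1531 in PBS. All treated tumors were above both PBS tumors, and those given CDN2 (20 µg) were above the rest.

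**Figure D3:**
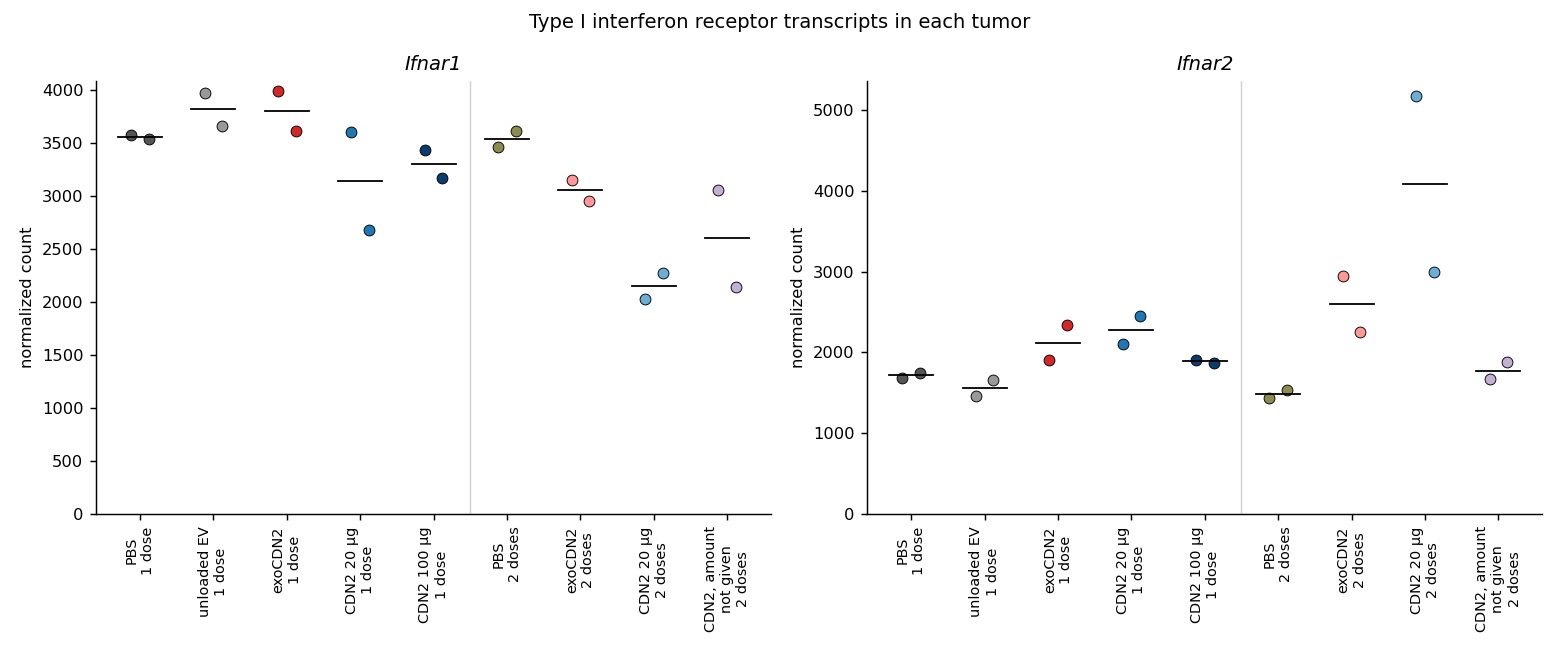
Each point is 1 tumor and each short line the mean of 2 tumors, as normalized counts of Ifnar1 and Ifnar2 from an axis that starts at 0. Ifnar2 reaches 5173 and 2993 and Ifnar1 falls to 2030 and 2275 in the tumors given 2 doses of CDN2 (20 µg).

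The rise of Ifnar2 was called after 2 doses of CDN2 (20 µg), at a log2 fold change of 1.41 (SE 0.22, adjusted p = 0.00025). Without the first of these tumors it was 0.99, under the ratio of 2. With exoCDN2 it was 0.82 (SE 0.22, adjusted p = 0.019), also under that ratio. Between exoCDN2 and CDN2 (20 µg) after 2 doses, the log2 difference was -0.59 for Ifnar2 (adjusted p = 0.049) and 0.56 for Ifnar1 (adjusted p = 0.036), neither past a ratio of 2. The change of Ifnar2 against PBS was larger after the second dose of CDN2 (20 µg) than after the first, by 1.01 on the log2 scale (SE 0.3, adjusted p = 0.035), where 15.7% of all genes and 1 of the 8 were called. That call was lost in 9 of 14 alternatives. For exoCDN2 the same difference was 0.55 for Ifnar2 (adjusted p = 0.35), with none of the 8 genes and 6.69% of all genes called. For the ligands these differences of changes rest on groups with 0 counts and are not given.

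**Figure D4:**
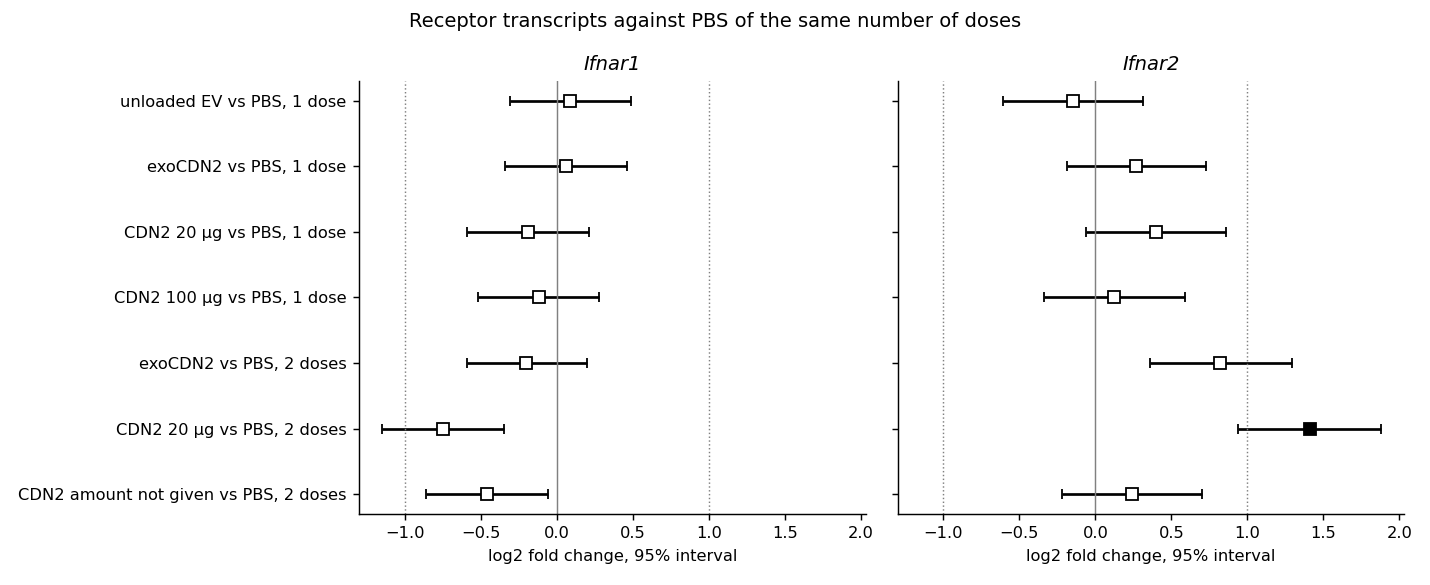
Squares are log2 fold changes of Ifnar1 and Ifnar2 against PBS of the same number of doses with 95% intervals, filled where the call was made, and dotted lines mark a ratio of 2. Ifnar2 after 2 doses of CDN2 (20 µg), at 1.41, is the 1 filled square, and Ifnar1 lies at -0.75 in the same tumors.

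The markers that moved with the receptor values were those of the cell makeup. In the tumors given 2 doses of CDN2 (20 µg), macrophage markers summed to 522 and 330 CPM, neutrophil markers to 870 and 198 and melanoma markers to 7410 and 12900. In those given 2 doses of exoCDN2, the sums were 426 and 278, 60.3 and 17.8, and 15100 and 16200. In PBS they were 129 and 107, 1.98 and 1.55, and 23500 and 23900. Within the macrophage list the markers did not move together. Fcgr1 was at 176 and 81.4 CPM after 2 doses of CDN2 (20 µg) and 5.33 and 4.03 in PBS, while Adgre1 was at 13.9 and 14.7 against 18.2 and 13.1, and Mrc1 at 5.72 and 6.77 against 25.6 and 11.2. Fibroblast markers summed to 1640 and 594 CPM, against 201 and 181 in PBS and 622 and 290 after 2 doses of exoCDN2, and muscle markers are given above. The part of cell makeup in the receptor differences was not tested.

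Downstream of the receptor, Stat2 and Irf9, subunits of the interferon-activated factor, rose with every form of the agonist after 1 dose, at log2 fold changes of 2.47 and 1.36 for exoCDN2, 2.21 and 1.23 for CDN2 (20 µg), and 2.31 and 1.17 for CDN2 (100 µg). The kinase genes Jak1 and Tyk2 were not called in these comparisons. After 2 doses Stat2 and Irf9 were higher than in PBS by 3.45 and 2.26 with exoCDN2, 3.01 and 2.49 with CDN2 (20 µg), and 1.13 and 1.13 with CDN2 of unlabelled amount. Of 7 receptor and signalling genes, 3 were lower in PBS after 2 doses than after 1, where 1.27% of all genes were called. The type III receptor genes Ifnlr1 and Il10rb were not called against PBS in any comparison.

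Of 18 genes that sense nucleic acid or induce interferon, 8 rose with exoCDN2, 9 with CDN2 (20 µg) and 7 with CDN2 (100 µg) after 1 dose. None fell, and the shares called over all genes were 2.81%, 3.26% and 2.5%. Ddx58 and Ifih1, the RNA helicases RIG-I and MDA5, rose by 2.95 and 3.53 on the log2 scale with exoCDN2, 2.22 and 3.43 with CDN2 (20 µg), and 2.41 and 3.77 with CDN2 (100 µg). After 2 doses Irf7, the factor that drives Ifna genes, was higher than in PBS by 5.77 with exoCDN2 and 6.51 with CDN2 (20 µg), and by 2.41 with the unlabelled amount. In these 3 comparisons 9, 9 and 4 of the 18 genes were called higher, where 11.2%, 30.4% and 0.959% of all genes were called. In PBS itself, 4 of the 18 were lower after 2 doses than after 1, where 1.27% of all genes were called.

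Interferon target genes stayed high where the ligands had fallen. Of 20 target genes, 19 rose with exoCDN2, 19 with CDN2 (20 µg) and 18 with CDN2 (100 µg) after 1 dose. Their median log2 fold changes were 3.21, 3.02 and 2.57, against -0.02, 0 and 0 over all genes, of which 2.81%, 3.26% and 2.5% were called. After 2 doses all 20 were called higher with exoCDN2 and with CDN2 (20 µg), at medians of 4.77 and 5.43, and 14 with the unlabelled amount, at 2.3. The shares called over all genes were 11.2%, 30.4% and 0.959%. Oasl2 and Rtp4 rose by 5.78 and 4.66 after 2 doses of exoCDN2, in tumors with 7 and 3 counts of Ifnb1. The PBS tumors to which they were compared were themselves lower after 2 doses than after 1 in 17 of the 20 targets. The median was -2.28, and 1.27% of all genes were called there. With the unlabelled amount the median target level on the log2 scale was 10.33 and 10.58. It was 10.44 and 10.41 in PBS after 1 dose, and 7.95 and 7.59 in PBS after 2. With all PBS tumors pooled, 0 of all genes were called for the unlabelled amount, against 164 in the main fit.

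**Figure D5:**
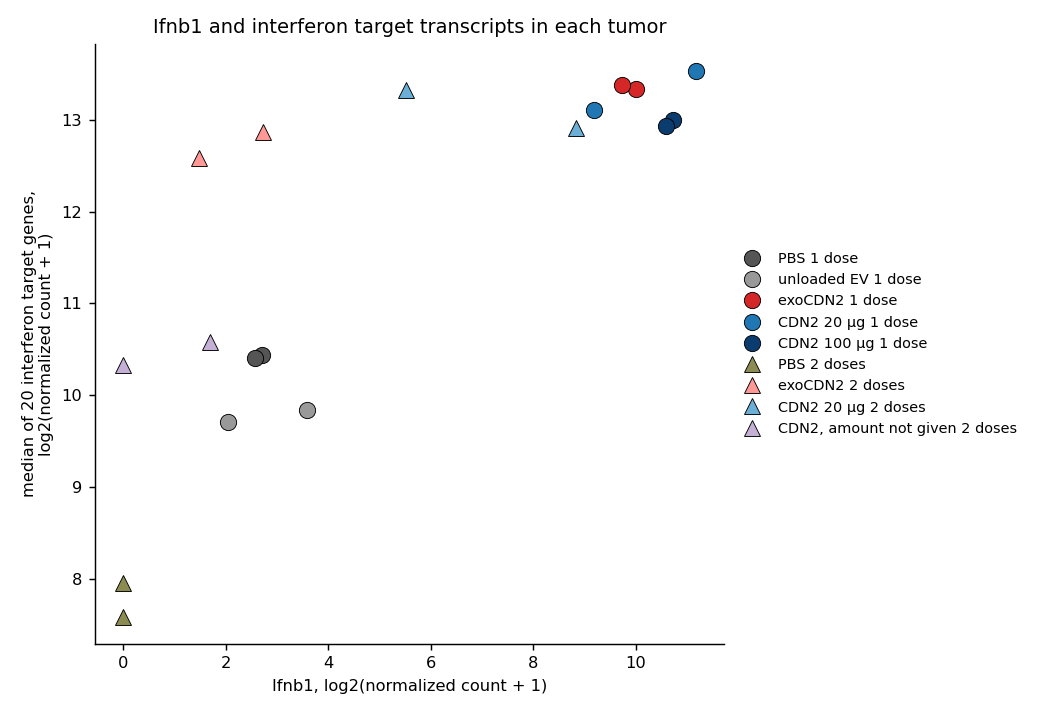
Each point is 1 tumor, with Ifnb1 on the x axis and the median of 20 interferon target genes on the y axis, both as log2(normalized count + 1), circles for 1 dose and triangles for 2 doses. Tumors given 2 doses of exoCDN2 have Ifnb1 at 2.73 and 1.47, in the range of PBS and unloaded EV tumors, and target medians of 12.87 and 12.58, near those of tumors given the agonist once.

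Taken without PBS as a reference, the median target level on the log2 scale was 13.34 and 13.38 after 1 dose of exoCDN2 and 12.87 and 12.58 after 2. From the first dose to the second, 11 of the 20 targets were lower with exoCDN2 and 2 higher, with a median log2 change of -1.41. With CDN2 (20 µg), 8 were lower and 2 higher, with a median of -0.33. The shares called over all genes were 7.32% for exoCDN2 and 20.5% for CDN2 (20 µg). Cxcl10, a chemokine, and Cmpk2, a nucleotide kinase, fell by 3.04 and 2.59 with exoCDN2. Between the formulations after 2 doses, 7 of the 20 targets were lower with exoCDN2 than with CDN2 (20 µg) and none higher, where 19.2% of all genes were called. In a fit of these 4 tumors alone, the number of all genes called fell from 3284 to 30.

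Feedback genes rose as well. Usp18 and Isg15, which act on the receptor complex and on protein conjugation, rose by 4.16 and 3.3 after 1 dose of exoCDN2 and were higher than PBS by 5.62 and 5.61 after 2 doses. Of 6 such genes, 4 were called higher after 1 dose of exoCDN2 or CDN2 (20 µg), and 5 and 4 after 2 doses. The shares called over all genes were 2.81% and 3.26% after 1 dose, and 11.2% and 30.4% after 2 doses. Socs1, an inhibitor of JAK kinases, rose by 2.97 and 4.08 with 1 and 2 doses of exoCDN2. The PBS level of 3 of the 6 genes was itself lower after 2 doses than after 1, with a median log2 change of -1.54 over the list. Between the PBS groups 1.27% of all genes were called, and between the doses of exoCDN2 7.32%. From the first dose of exoCDN2 to the second, 2 of the 6 were lower, Usp18 and Socs1 at log2 changes of -1.04 and -1.44, and Ptpn6, a phosphatase, was higher at 1.6, with a median of -0.62.

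The genes whose level was most like that of each member over the 18 tumors, by Pearson's r of log2 CPM, are given as a description, since tumors of 1 group share their treatment. For Ifnb1 they were the cytokine genes Il27 (r = 0.98) and Il6 (0.977), and Armcx6 (0.973). For Ifna2 they were Ifna4 (0.988), Cgas (0.973) and Ifna5 (0.955), for Ifna4 Ifna2, Ifna5 and Cgas, and for Ifna5 Ifna4, Ifna1 and Ifna6. The type III ligands were nearest each other or Ifna2, with r = 0.951 between Ifnl2 and Ifnl3 and Rad52 in both lists. Ifnar1 was nearest Nfya (0.966), Pkd2 (0.937) and Hp1bp3 (0.925). Ifnar2 was nearest Nos2 (0.973), which encodes inducible nitric oxide synthase, Gla (0.971) and Ier5 (0.971). With Spearman's rho in place of r, Ifna5 alone kept its 3 genes. All 3 changed for Ifnb1, Ifnar1 and Ifnar2, and Cgas and Rad52 left the lists of Ifna2, Ifna4, Ifnl2 and Ifnl3.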

How the data were processed

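RNA of 18 tumors (total RNA per the labels, mRNA libraries per the study's methods) was sequenced by the authors as paired reads of 150 bases. Per the labels and the study's methods, reads were aligned with OmicSoft ArraySuite 10.1 to GRCm38, and the deposited values are RSEM expected counts per gene of Ensembl release 88, not normalized. RSEM splits reads that match several genes, which can bear on the Ifna and Ifnl copies, though their deposited counts were whole numbers in every tumor. GENCODE M21, used for positions, lengths and sequences, is another release of the same build.

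Expected counts were rounded and fitted with edgeR 4.0.16 in R 4.3.3 (quasi-likelihood test, TMM factors, 1 mean per group over all 18 tumors, 9 residual degrees of freedom), after a filter that asks for counts of about 10 in a group's tumors and 15 in total. A gene was called at a Benjamini-Hochberg adjusted p under 0.05 over 17110 genes and a ratio over 2. Levels are counts divided by DESeq2 1.42.0 size factors, with a pseudocount of 1 on the log2 scale. Where a group was at 0, folds were computed against 3 counts per tumor. CPM values use TMM-scaled totals.

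The genes and pathway lists were chosen with earlier results of these data known. Pathway genes named are at most 3 per list and comparison, those called with the smallest p, beside whole short lists and the same genes in other comparisons, and the genes most alike are the 3 with the highest r. Alternatives were DESeq2, RLE factors, no filter, fewer tumors, pooled PBS, no ratio limit, a replicate block, another pseudocount and each tumor left out in turn. A gene of the pathway lists is not reported here.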

Additional observations from a re-analysis of the deposited data

Results flagged for a closer look

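In 2 results an effect differed between groups by a test of the difference itself. The log2 change of Ifnar2 against PBS was larger by 1.01 after 2 doses of CDN2 (20 µg) than after 1 dose (edgeR, adjusted p = 0.035), with both treated tumors above both PBS tumors at each number of doses. The fall of Ifnb1 from the first to the second dose was larger with exoCDN2 than with CDN2 (20 µg), at a difference of -5.36 on the log2 scale (adjusted p = 0.036), and both tumors given 2 doses were below both given 1 dose in each formulation. Both calls were lost without the first tumor given 2 doses of CDN2 (20 µg). That tumor had the fewest counts of the 18, at 21608895, the lowest sum of melanoma markers, at 7410 CPM, and the highest of muscle markers, at 3410 CPM, and their part in these calls was not tested. In the Ifnb1 result, exoCDN2 and CDN2 (20 µg) also differed in amount of CDN2, and the parts of formulation and amount were not tested. The formal check for a sample far from its group needs at least 4 samples and was not made.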

How the results depend on the processing

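The call of Ifnar2 in the difference between doses of CDN2 (20 µg) was lost in 9 of 14 alternatives, that of Ifnb1 in the difference between the formulations in 8 of 14, and those of Ifna4, Ifna5 and Ifnl2 in 2 to 7 of 9 to 11. Depth limits Ifna5, Ifnl2 and Ifnl3, which had at most 43 counts. RLE factors changed no call of the 8 genes. DESeq2 called 2 of the 8 genes for exoCDN2 against PBS and against unloaded EVs, 0 for CDN2 (20 µg) and 2 for exoCDN2 from the first dose to the second, and lost the Ifna4 calls of both amounts of CDN2 after 1 dose. Of the pathway genes, where edgeR called 0, it called 2 for unloaded EVs against PBS, 2 between exoCDN2 and CDN2 (20 µg) after 1 dose and 6 between the amounts of CDN2. The counts that follow are again of the 8 genes. Without the filter on low counts, 5 were called for CDN2 (20 µg) after 1 dose and 1 for exoCDN2 after 2 doses. It gave 1 between the PBS groups and 0 for the difference between doses of CDN2 (20 µg). Pooled PBS tumors gave 5 for CDN2 (20 µg) after 1 dose. Fits of only the groups compared gave 1 for CDN2 (20 µg) after 1 dose and 0 for exoCDN2 against CDN2 (20 µg) after 2 doses, for CDN2 (20 µg) between doses, for its difference between doses and for the difference between the formulations. Some fits of fewer tumors gave no value for Ifnl3, which missed the filter there. In some comparisons of only 2 groups the same held for Ifnb1, Ifna4, Ifna5 and Ifnl2. DESeq2 gave no adjusted p for some Ifna4, Ifna5, Ifnl2 and Ifnl3 results. With no limit on the ratio, 1 was called for exoCDN2 after 2 doses and 3 between the formulations after 2 doses.

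Leaving out each tumor in turn, the number of the 8 genes called was 0 to 2 for exoCDN2 after 1 dose, 1 to 4 for CDN2 (20 µg), 1 to 3 for CDN2 (100 µg), 0 to 1 for exoCDN2 after 2 doses, 1 to 2 for CDN2 (20 µg) after 2 doses, 0 to 1 between the formulations after 2 doses, 2 against unloaded EVs, 1 to 4 for CDN2 (20 µg) and 2 to 3 for exoCDN2 between doses, 0 to 1 for the difference between doses of CDN2 (20 µg) and 0 to 1 for the difference between the formulations. The sign turned only in log2 values that were not called. Against PBS after 1 dose, Ifnb1 ranged from -0.72 to 1.04 with unloaded EVs, and Ifnar1 from -0.02 to 0.14 with exoCDN2 and from -0.41 to 0.02 with CDN2 (20 µg). Ifnar1 ranged from -0.11 to 0.05 for exoCDN2 against EVs, from -0.15 to 0.3 between the amounts and from -0.05 to 0.02 between the PBS groups. Between the formulations after 1 dose, the ranges were -1.29 to 0.66 for Ifnb1, -0.16 to 1.87 for Ifna2, -0.81 to 1.15 for Ifnl2 and -0.27 to 1.98 for Ifnl3. Between the amounts they were -0.51 to 1.46 for Ifnb1, -0.83 to 1.22 for Ifna2, -2.6 to 0.12 for Ifnl2 and -5.73 to 0.95 for Ifnl3. The number of all genes called, and so the percentages printed beside the members, moved over 1.5 times in 60 of 80 such fits and in 33 of 108 others. Without 1 tumor it went from 3284 to between 631 and 6130 for the formulations after 2 doses, from 1140 to between 39 and 4588 for the difference between the formulations, and from 480 to as few as 168 for exoCDN2 against PBS.

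Replicate numbers were not known to pair tumors, and tumors of the same number did not deviate together, at a mean correlation of 0.014 over 36 pairs of groups. With the replicate number as a block, Ifna5 lost its call against EVs (adjusted p = 0.051) and for CDN2 (20 µg) between doses (0.051), Ifnb1 lost its call in the difference between the formulations (-5.11, adjusted p = 0.056), which left 0 of the 8 genes called there, and Ifnl2 between the formulations after 1 dose turned from -0.14 to 0.04. Where a count or sign moved, the cause was not tested.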
